A study of Homo sapiens with 8 samples.

Results

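Divergent promoter lncRNAs are long noncoding RNAs that start close to the start of a coding gene and are transcribed away from it, and the gene nomenclature gives them the name of that coding gene with the suffix -DT. The 181 members described here are the genes with such a symbol and a mean of at least 50 estimated reads over 8 RNA sequencing libraries, out of 590 -DT genes and 62826 genes listed in the deposited tables. The selection rule used the name and the mean level, and did not use the difference between the groups. It was chosen, however, with earlier results of these data known. Each lncRNA was set beside the coding gene in its name, called its partner below.

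The libraries came from LUHMES cells, an established human mesencephalic line that is conditionally immortalised and stops dividing when it is differentiated into neurons labelled dopaminergic. The genotype was wild type in all of them, and all cells had been differentiated for 6 days in medium with tetracycline (1 µg/mL), which switches off the immortalising transgene, dbcAMP (1 mM) and GDNF (2 ng/mL). Treated cells received antimycin A at 25 µM, an inhibitor of respiratory complex III, with oligomycin at 10 µM, an inhibitor of the ATP synthase, for 8 h. Vehicle cells received DMSO. Each group has 4 libraries, numbered 2 to 5 by differentiation, and the series text calls the differentiations independent batches with 4 technical replicates in each. All libraries come from the same line, so the spread between them is that between differentiations of that line.

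Many human promoters lie in CpG islands and fire in both directions. The upstream transcript is usually short and short-lived: early cleavage and polyadenylation signals and the scarcity of U1 snRNP binding sites end it, and the nuclear RNA exosome removes it, so only some upstream transcripts are long and stable enough to be seen in polyadenylated RNA and annotated as genes. Their level therefore depends both on transcription from the shared promoter and on the turnover of the transcript, which counts of polyadenylated RNA do not separate.

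Total estimated reads were 93.8 to 109 M in treated libraries and 93.7 to 110 M in vehicle libraries. On log2 CPM (counts scaled to a common library total), principal component 1 (71.5% of the variance) divided treated from vehicle libraries, and component 2 (10.3%) set vehicle library 2 (-54.8) apart from the others, which lay between -13.4 and 22.9. The main counts of called members and pairs are therefore also given without that library. All 10 genes of the integrated stress response list were higher in treated cells, with a median log2 fold change of 3.62. Of 12 dopaminergic markers, SLC6A3 had 307 to 341 TPM (a level scaled for transcript length) in treated libraries and 296 to 414 TPM in vehicle libraries and TH 21.3 to 28.2 TPM against 7.32 to 13.0 TPM. In contrast, LMX1A, LMX1B, FOXA2, ALDH1A1, SLC18A2 and PITX3 had at most 0.266 TPM in any library. TH and KCNJ6 of this list were higher (log2 fold changes 1.04 and 0.78), and EN1 (-0.80) and DDC (-1.05) lower. DDC was itself low, with 0.216 to 0.265 TPM in treated libraries and 0.426 to 0.711 TPM in vehicle libraries. Of 8 pan-neuronal markers 5 were lower (TUBB3, MAP2, STMN2, SYN1 and DCX) and 3 higher, with a median of -0.31 and summed levels of 3966 to 4086 TPM in treated libraries and 4264 to 5624 TPM in vehicle libraries. Some defining markers of the labelled dopaminergic neuron were thus present and others at or near 0. The 5 proliferation markers were all lower, with summed levels of 88.4 to 97.5 TPM in treated libraries and 118 to 190 TPM in vehicle libraries. Of 9 glial and microglial markers only SLC1A3 passed the test (higher), the list summed to 15.8 to 17.7 TPM in treated libraries and 3.41 to 4.45 TPM in vehicle libraries, and GFAP, AQP4, MOG, PTPRC, CSF1R and AIF1 had at most 0.054 TPM. The part of these markers in the results below was not tested. In bulk RNA, fewer cells of a type and less RNA per cell cannot be told apart.

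GENCODE release 29 on the hg38 build lists 178 of them as lncRNA genes (88 antisense, 73 lincRNA, 12 processed transcript and 5 bidirectional promoter lncRNA), IRX2-DT as protein coding, and does not list 2, ZNF496-DT and ACAD9-DT. All 181 partners are protein coding. The lncRNA lies on the strand opposite its partner in 180 pairs (ACAD9-DT could not be placed). The annotated 5′ ends are within 1000 bases of each other in 169 pairs, 125 with a gap between them and 44 with overlapping ends, and the median gap over the 180 placed pairs is 97.5 bases. The other 11 lie farther apart. The lncRNA has a single exon in 38 genes and at least 2 exons in 141. Exons of the lncRNA and of the partner share bases in 47 pairs, where reads can be divided between both genes, and no source used here says whether the authors counted by strand.

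Promoter windows of 6 members are printed because in each the window holds both annotated starts, the lncRNA's and the partner's, so that both starts can be read from a single short stretch of DNA. They are the windows of ZNF778-DT, CENATAC-DT and CEP83-DT, which fell strongly, of TARS1-DT and DNAJC3-DT, whose partners are induced stress genes, and of NUP50-DT, which rose. Each runs from 250 bases before to 50 bases after the lncRNA start in RefSeq (GRCh38.p14) and reads 5′ to 3′ on the strand of the lncRNA, so the partner reads the other way. Capitals mark the CCAAT box (CCAAT, bound by NF-Y), the GC box (GGGCGG, bound by SP factors), the ETS core (CCGGAAG, bound by GABPA) and the NRF1 element, a GC-rich palindrome, each on either strand. Neighbouring and overlapping matches run together.
ZNF778-DT: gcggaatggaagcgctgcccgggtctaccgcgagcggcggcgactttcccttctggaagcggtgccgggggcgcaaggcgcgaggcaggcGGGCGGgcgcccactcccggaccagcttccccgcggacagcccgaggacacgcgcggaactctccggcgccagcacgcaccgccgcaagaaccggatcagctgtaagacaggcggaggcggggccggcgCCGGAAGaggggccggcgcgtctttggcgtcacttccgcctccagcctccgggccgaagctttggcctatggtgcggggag
CENATAC-DT: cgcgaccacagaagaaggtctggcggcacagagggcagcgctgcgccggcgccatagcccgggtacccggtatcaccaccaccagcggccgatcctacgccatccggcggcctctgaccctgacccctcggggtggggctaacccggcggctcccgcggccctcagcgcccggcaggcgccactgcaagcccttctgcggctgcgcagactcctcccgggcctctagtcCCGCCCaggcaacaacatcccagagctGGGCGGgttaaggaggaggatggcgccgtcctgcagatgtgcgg
CEP83-DT: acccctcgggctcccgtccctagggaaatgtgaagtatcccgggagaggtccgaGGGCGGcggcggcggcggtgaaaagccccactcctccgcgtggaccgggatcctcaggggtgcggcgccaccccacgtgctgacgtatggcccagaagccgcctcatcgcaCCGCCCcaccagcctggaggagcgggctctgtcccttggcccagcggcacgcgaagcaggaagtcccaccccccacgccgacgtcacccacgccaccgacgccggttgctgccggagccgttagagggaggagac
TARS1-DT: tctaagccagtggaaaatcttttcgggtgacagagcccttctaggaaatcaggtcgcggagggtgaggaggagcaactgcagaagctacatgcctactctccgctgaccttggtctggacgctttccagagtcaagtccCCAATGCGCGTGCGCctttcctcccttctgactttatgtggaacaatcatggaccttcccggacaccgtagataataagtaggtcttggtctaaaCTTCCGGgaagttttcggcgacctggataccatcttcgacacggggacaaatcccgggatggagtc
DNAJC3-DT: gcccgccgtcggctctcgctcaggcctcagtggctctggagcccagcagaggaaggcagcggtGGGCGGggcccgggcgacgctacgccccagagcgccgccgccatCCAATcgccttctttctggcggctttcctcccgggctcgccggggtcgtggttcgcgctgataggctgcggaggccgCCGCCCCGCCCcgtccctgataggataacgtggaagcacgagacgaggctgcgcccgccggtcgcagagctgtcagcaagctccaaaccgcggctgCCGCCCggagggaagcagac
NUP50-DT: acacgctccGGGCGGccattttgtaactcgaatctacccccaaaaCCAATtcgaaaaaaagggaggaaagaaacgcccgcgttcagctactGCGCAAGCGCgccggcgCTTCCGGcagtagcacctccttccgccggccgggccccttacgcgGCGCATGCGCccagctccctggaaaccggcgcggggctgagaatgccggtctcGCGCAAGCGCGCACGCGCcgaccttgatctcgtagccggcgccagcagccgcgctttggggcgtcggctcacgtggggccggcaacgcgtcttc
The windows lie at chr16:89217604-89217903 for ZNF778-DT, chr11:118997953-118998252 for CENATAC-DT, chr5:33440585-33440884 for TARS1-DT, chr13:95676876-95677175 for DNAJC3-DT and chr22:45163732-45164031 for NUP50-DT, all on the minus strand. The window of CEP83-DT lies on the plus strand at chr12:94459753-94460052. In the order printed, the gap between the 2 starts is 50, 138, 15, 77, 214 and 60 bases, and the lncRNA starts at base 251, 249, 251, 266, 251 and 251 of the window by the GENCODE annotation.

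A RefSeq promoter window was found for 146 of the 181 members, and in 86 of these its start lies within 50 bases of the GENCODE start. GC content had a median of 68.5% in the members' windows, against 62.3% in 22198 windows of protein-coding genes and 58.7% in all 35116 windows of the table. The ratio of observed to expected CpG was 0.906 in the members' windows, against 0.737 and 0.579. A GC box was present in 74.0% of the members' windows, 56.3% of the coding ones and 45.0% of all. The ETS core was present in 26.0% of the members' windows, 12.8% of the coding ones and 10.3% of all, and the NRF1 element in 17.1%, 7.38% and 5.78%. The CCAAT box was present in 36.3%, 34.7% and 34.6%. By call, the CCAAT box was found in 30.1% of the windows of the 103 members that fell and in 51.2% of those of the 43 with no called fall. The other 3 motifs split the other way: 77.7% against 65.1% for the GC box, 29.1% against 18.6% for the ETS core and 20.4% against 9.30% for the NRF1 element. The core that ATF4 and C/EBP factors share (TGATGNAA) was in 1 of the 146 windows (0.685%) and in 3.62% of all windows. The antioxidant response core (TGACNNNGC) was in 20.5% and 13.3%, and the TATA box (TATAAA) in 6.16% and 11.5%. A TGACNNNGC match can overlap other motifs, and no such share was tested.

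Most of the divergent lncRNAs fell in treated cells. Of the 181, 125 (69.1%) were lower and 6 (3.31%) were higher by edgeR's quasi-likelihood test (adjusted p under 0.05 by Benjamini-Hochberg over 19785 genes), and 50 had no call. Over all genes tested, 30.2% were lower and 27.7% higher. The median log2 fold change of treated over vehicle was -0.77 over the members (quartiles -1.16 and -0.27) and -0.02 over all genes. Without vehicle library 2, 131 members were lower and 7 higher. All 4 treated libraries lay below all 4 vehicle libraries in 125 members (28.2% of all genes), above them in 5 (25.3% of all genes), and overlapped them in 51. A fall of at least 1 log2 unit was called in 58 members (8.49% of all genes), and a rise of that size in 0 of the 181, also at an unadjusted p under 0.05 and by DESeq2. Among those called lower, the mean CPM of vehicle over treated libraries ran from 1.21-fold to 9.51-fold, with a median of 1.92-fold.

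**Figure D1:**
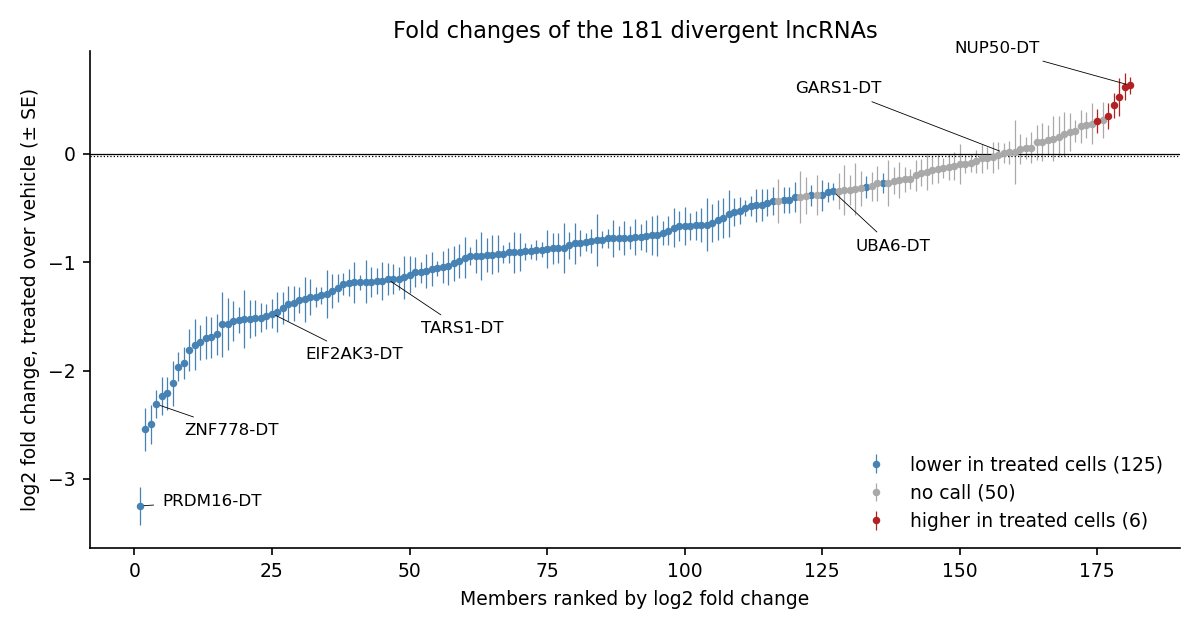
Log2 fold change (treated over vehicle) of each of the 181 members, ranked from lowest to highest, with its standard error as bars; colours give the edgeR call and the dotted line the median of all genes (-0.02). The 125 members called lower fill the left of the plot down to PRDM16-DT at -3.25, and the 6 called higher end at NUP50-DT with 0.63.

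The members' summed level moved as a whole. It was 524, 534, 525 and 529 CPM in treated libraries 2 to 5, against 913, 926, 951 and 929 CPM in vehicle libraries 2 to 5. The groups did not overlap. Without PRDM16-DT, which held the largest share in vehicle libraries, the sum was 502 to 516 CPM in treated libraries and 744 to 774 CPM in vehicle libraries. Per length, the 181 members summed to 568 to 592 TPM in treated libraries and 716 to 976 TPM in vehicle libraries, the lowest of which was library 2. Single members were low: the mean over the 8 libraries ran from 0.143 to 62.7 TPM with a median of 2.01 TPM. Per length, a member had a median of 4.08% of its partner's TPM in treated cells and 7.87% in vehicle cells.

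The largest fall was that of PRDM16-DT (chr1:3059615-3068437, 731 bases from the start of PRDM16), a multi-exon antisense gene beside a zinc finger transcription factor of the PRDM family. It had 21.8, 20.8, 18.8 and 12.8 CPM in treated libraries 2 to 5, against 139, 177, 207 and 183 CPM in vehicle libraries 2 to 5. Every treated library lay far below every vehicle library. The log2 fold change was -3.25 ± 0.18 (SE; edgeR adjusted p = 3.3e-07). PRDM16 itself fell as well, to 37.8 ± 6.38 CPM in treated cells against 110 ± 8.15 CPM in vehicle cells (SD, n = 4 each), a log2 fold change of -1.54. The ratio of lncRNA to partner fell by 1.71 on the log2 scale (limma adjusted p = 8.7e-07), so the lncRNA fell by more than its partner. Per length, PRDM16-DT stood at 133% of the PRDM16 level in treated cells and 348% in vehicle cells.

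MAP3K9-DT lies beside MAP3K9, a mixed-lineage kinase upstream of JNK. It had 0.417, 0.256, 0.275 and 0.366 CPM in treated libraries, against 1.59, 1.80, 2.34 and 1.95 CPM in vehicle libraries (log2 fold change -2.54 ± 0.20, edgeR adjusted p = 2.95e-06). The groups were clearly separate, and MAP3K9 itself had a log2 fold change of -0.65.

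ZNF778-DT is a single-exon lncRNA that starts 50 bases from ZNF778, a zinc finger gene, and its window is the first printed above. It had 0.843, 1.11, 1.04 and 1.26 CPM in treated libraries, against 5.47, 4.91, 5.31 and 5.37 CPM in vehicle libraries (log2 fold change -2.31 ± 0.13, edgeR adjusted p = 3.6e-07). No treated library came near a vehicle library, and ZNF778 had a log2 fold change of -0.36. CEP83-DT, also of 1 exon, starts 15 bases from CEP83, whose protein sits on the distal appendages of the centriole. It had 0.467, 0.622, 0.674 and 0.649 CPM in treated libraries, against 2.29, 2.50, 2.07 and 2.36 CPM in vehicle libraries (log2 fold change -1.93 ± 0.14, edgeR adjusted p = 2.48e-06). The groups did not overlap, while CEP83 averaged 16.1 ± 1.39 CPM in treated cells and 16.9 ± 2.67 CPM in vehicle cells and had no call.

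CENATAC-DT lies beside CENATAC, a factor of the minor spliceosome. It had 0.284, 0.378, 0.247 and 0.230 CPM in treated libraries, against 1.36, 1.28, 1.22 and 1.49 CPM in vehicle libraries (log2 fold change -2.23 ± 0.18, edgeR adjusted p = 3.81e-06). CENATAC went the other way, with 13.3 ± 1.18 CPM in treated cells and 9.57 ± 1.96 CPM in vehicle cells (log2 fold change 0.48). Other large falls were those of PDCD6IP-DT (-2.21), MOCS2-DT (-2.12), FAM151B-DT (-1.96) and USP46-DT (-1.81). PDCD6IP encodes the ESCRT-associated protein ALIX, MOCS2 subunits of molybdopterin synthase and USP46 a deubiquitinase. Of these 4 partners MOCS2 was lower (-0.65), FAM151B was higher (0.85), and PDCD6IP (-0.13) and USP46 (0.11) had no call.

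**Figure D2:**
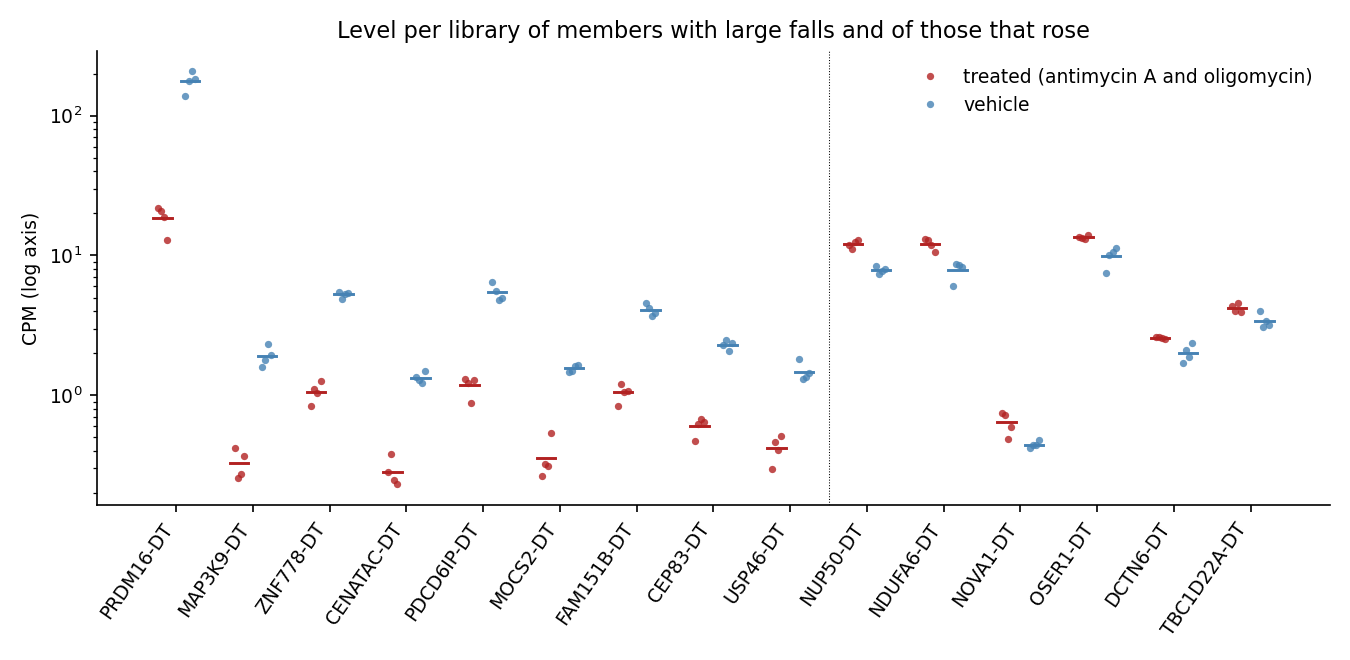
CPM (log axis) in each library for 9 members with large falls (left of the dotted line) and the 6 that rose (right), treated libraries in red left of vehicle libraries in blue, with the group mean as a bar. Treated and vehicle points are separate in all 9 falls shown, and in the rises they lie close together, with TBC1D22A-DT overlapping.

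The partners showed no such common fall. Of 180 partners tested (PKD2L2 was too low to test), 69 were higher and 43 lower, with a median log2 fold change of 0.08. The balance depended on the scaling: with library totals in place of TMM factors, which moved the median of all genes to -0.12, 48 partners were higher and 57 lower. Among coding genes with at least 50 reads, 29.8% were higher and 30.1% lower, against 38.3% and 23.9% of the partners. Of the lncRNAs that fell, 45 had a partner that was higher, 35 a partner that was lower and 44 a partner with no call. Of the 6 that rose, 2 had a partner that was higher and 4 a partner with no call. Both genes were thus called in the same direction in 37 pairs and in opposite directions in 45. Without vehicle library 2 these counts were 41 and 56, and with library totals they were 47 and 34, so which of them was the larger turned with the scaling. In 214 pairs of other head-to-head lncRNAs the counts were 42 and 39, and in 656 pairs of coding genes 116 and 96. Across the 180 pairs, Pearson's r of the log2 fold changes was 0.24 and Spearman's rho 0.18, given as a description since all pairs share the 8 libraries.

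A direct test of the pair compared the lncRNA with its partner within each library. The ratio of lncRNA to partner was lower in treated cells in 128 of 180 pairs (71.1%) and higher in 10 (5.56%), by limma on log2 CPM with the adjustment over 1240 pairs. Over all 1240 head-to-head pairs of the annotation and -DT pairs, 45.8% were lower and 19.5% higher. The median change of the ratio over the members was -0.79 on the log2 scale. Without vehicle library 2 the ratio was lower in 132 pairs and higher in 13. With library totals the counts were 128 and 10.

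**Figure D3:**
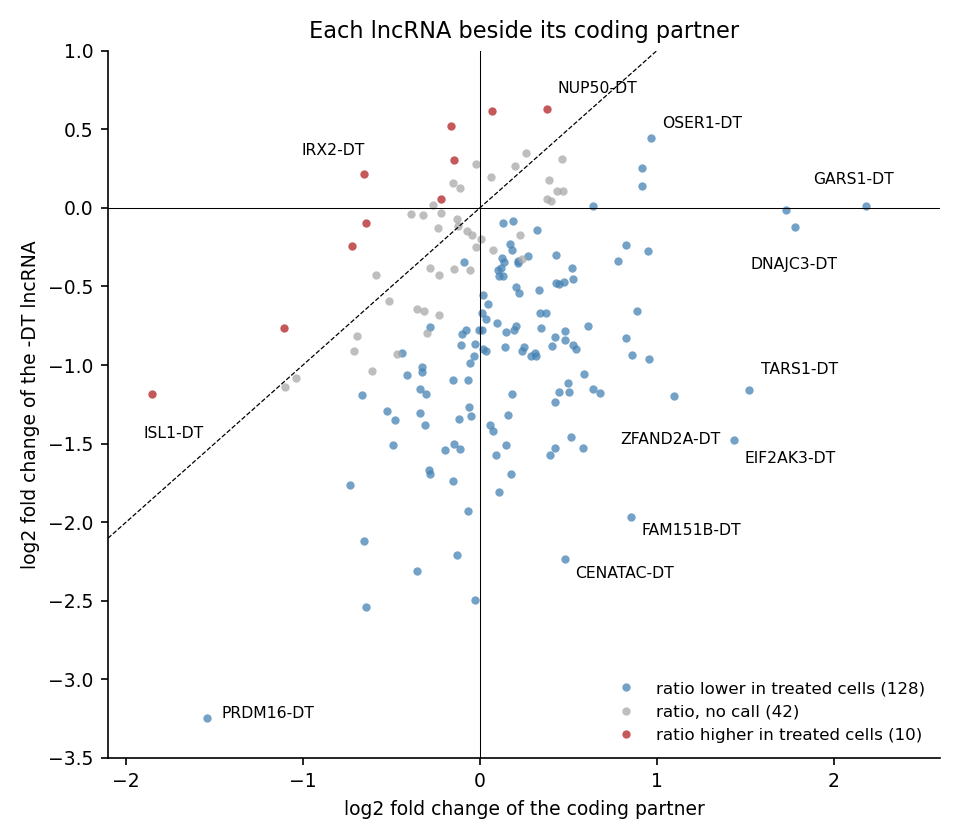
Log2 fold change of each lncRNA (vertical) against that of its coding partner (horizontal) for 180 pairs, coloured by the limma call of their ratio; on the dashed line both changed equally. Most points (128) lie below the line with a lower ratio, and the 10 pairs with a higher ratio lie above it, among them IRX2-DT and NUP50-DT.

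Next come the 6 pairs with the smallest adjusted p of the ratio test, and the pair of JTB. Some of their partners are known from the response to stress in the endoplasmic reticulum or to amino acid shortage. EIF2AK3 encodes PERK, the kinase that phosphorylates eIF2alpha under such stress, and EIF2AK3-DT (chr2:88627539-88631821) overlaps its 5′ end by 37 bases. EIF2AK3-DT had 1.08, 1.22, 1.10 and 1.30 CPM in treated libraries, against 3.90, 3.0, 2.88 and 3.28 CPM in vehicle libraries (log2 fold change -1.47 ± 0.13, edgeR adjusted p = 7.92e-06). EIF2AK3 had 192, 206, 216 and 232 CPM in treated libraries, against 90.9, 83.0, 69.6 and 68.7 CPM in vehicle libraries (log2 fold change 1.44 ± 0.10, edgeR adjusted p = 1.89e-06). Both genes were separate between the groups, in opposite directions, and the ratio fell by 2.90 on the log2 scale (limma adjusted p = 2.6e-08). Their exons share bases, so some reads of the 2 genes may have been divided between them.

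TARS1 encodes threonyl-tRNA synthetase, and the 2 genes start 77 bases apart with no shared exon. TARS1-DT had 2.41, 2.47, 2.74 and 2.56 CPM in treated libraries, against 7.59, 4.95, 4.89 and 5.29 CPM in vehicle libraries (log2 fold change -1.16 ± 0.15, edgeR adjusted p = 9.37e-05). Vehicle library 2 stood above the other vehicle libraries, and without it the log2 fold change was -0.99. TARS1 had 430, 429, 464 and 482 CPM in treated libraries, against 178, 149, 154 and 149 CPM in vehicle libraries (log2 fold change 1.52). From starts in the same printed window, 1 transcript fell and the other rose, and their ratio fell by 2.65 on the log2 scale (limma adjusted p = 2.9e-08).

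GARS1 encodes glycyl-tRNA synthetase and rose the most of the 180 partners. It had 814, 795, 836 and 853 CPM in treated libraries, against 209, 178, 169 and 170 CPM in vehicle libraries (log2 fold change 2.18 ± 0.08, edgeR adjusted p = 2.88e-08). GARS1-DT had 30.4, 35.3, 33.6 and 35.5 CPM in treated libraries, against 39.3, 31.9, 31.5 and 31.1 CPM in vehicle libraries (log2 fold change 0.01 ± 0.09, edgeR adjusted p = 0.931). The groups of the lncRNA overlapped, and the ratio fell by 2.17 on the log2 scale (limma adjusted p = 4.7e-09). Exons of the 2 genes share bases.

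DNAJC3 encodes a co-chaperone of the endoplasmic reticulum that also restrains PERK. It averaged 123 ± 12.7 CPM in treated cells and 35.6 ± 0.555 CPM in vehicle cells (log2 fold change 1.78). DNAJC3-DT had 4.02, 4.52, 4.77 and 5.76 CPM in treated libraries, against 5.46, 5.47, 5.05 and 4.77 CPM in vehicle libraries, with overlapping groups (log2 fold change -0.12 ± 0.12, edgeR adjusted p = 0.397). The ratio fell by 1.91 on the log2 scale (limma adjusted p = 6.4e-08), although both starts lie in 1 window and no exon is shared.

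ZFAND2A encodes a zinc finger protein of the stress response that associates with the proteasome. It averaged 19.7 ± 1.02 CPM in treated cells and 9.21 ± 0.322 CPM in vehicle cells (log2 fold change 1.10). ZFAND2A-DT fell to 2.16 ± 0.199 CPM in treated cells, against 4.96 ± 0.187 CPM in vehicle cells (log2 fold change -1.20, edgeR adjusted p = 4.73e-06). The pair of FAM151B, with 1.86 ± 0.238 CPM in treated cells and 1.03 ± 0.144 CPM in vehicle cells, showed the same opposition: FAM151B-DT stood at 1.05 ± 0.152 CPM in treated cells and 4.09 ± 0.374 CPM in vehicle cells. JTB, which encodes a small transmembrane protein, averaged 49.4 ± 1.57 CPM in treated cells and 32.9 ± 9.24 CPM in vehicle cells (log2 fold change 0.59), while JTB-DT averaged 0.658 ± 0.114 CPM in treated cells and 1.90 ± 0.308 CPM in vehicle cells (log2 fold change -1.53). The ratio fell by 2.29 for ZFAND2A, 2.79 for FAM151B and 2.14 for JTB on the log2 scale. Exons are shared in the pairs of ZFAND2A and FAM151B.

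**Figure D4:**
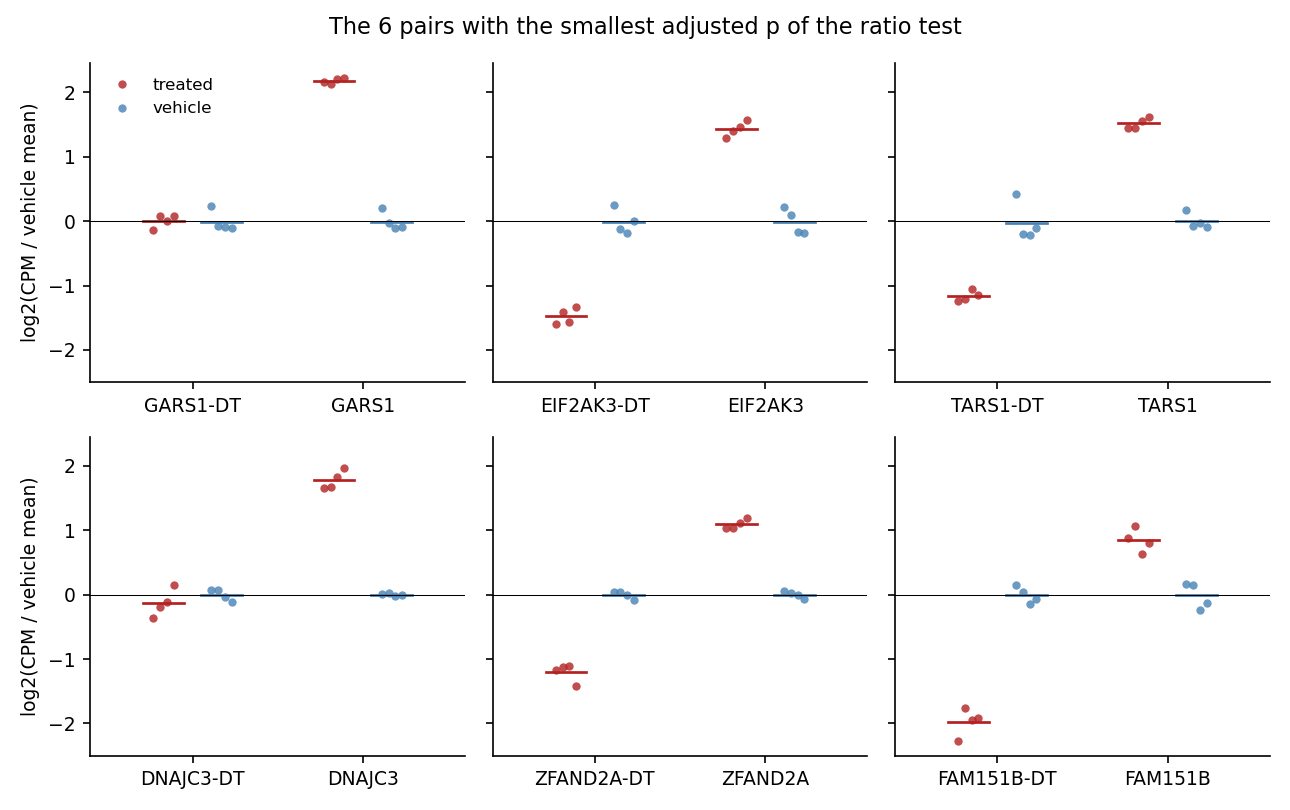
Level of lncRNA (left in each panel) and partner (right) in each library, as log2 of CPM over the vehicle mean of that gene, treated in red left of vehicle in blue, with bars at the mean of these values. In all 6 pairs the partner lies higher in treated libraries, while GARS1-DT and DNAJC3-DT lie around 0 and the other 4 lncRNAs lie between -1.05 and -2.28.

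The other stress response partner of the class list was ATF6, the endoplasmic reticulum membrane sensor that is cleaved into a transcription factor. ATF6-DT averaged 0.766 ± 0.164 CPM in treated cells and 0.974 ± 0.0549 CPM in vehicle cells (log2 fold change -0.34, edgeR adjusted p = 0.104), with overlapping groups. ATF6 averaged 130 ± 6.67 CPM in treated cells and 118 ± 9.10 CPM in vehicle cells and was not called either. ATF6-DT was called lower with library totals in place of TMM factors (log2 fold change -0.44, edgeR adjusted p = 0.0446) and without treated library 4 (-0.46, edgeR adjusted p = 0.0485).

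The 6 rises were small, between 0.30 and 0.63 on the log2 scale. NUP50-DT, beside a nucleoporin gene, had 11.9, 11.1, 12.6 and 13.0 CPM in treated libraries, against 8.40, 7.32, 7.71 and 7.96 CPM in vehicle libraries (log2 fold change 0.63 ± 0.08, edgeR adjusted p = 8.62e-05). The groups were separate, NUP50 rose as well (0.38), and the ratio rose by 0.25 (limma adjusted p = 0.0248). NDUFA6-DT, beside the gene of a subunit of respiratory complex I, had 13.1, 13.0, 12 and 10.6 CPM in treated libraries, against 6.10, 8.75, 8.58 and 8.23 CPM in vehicle libraries (log2 fold change 0.62 ± 0.12, edgeR adjusted p = 0.00163). NDUFA6 itself averaged 56.2 ± 2.79 CPM in treated cells and 53.5 ± 1.64 CPM in vehicle cells and was not called, and the exons of this pair overlap. OSER1-DT had 13.6, 13.4, 13.0 and 13.9 CPM in treated libraries, against 7.55, 10.1, 10.6 and 11.3 CPM in vehicle libraries (log2 fold change 0.45 ± 0.11, edgeR adjusted p = 0.00716). OSER1, a gene named for its response to oxidative stress, rose more (0.97), so the ratio fell by 0.50.

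NOVA1-DT (0.52), beside the neuronal splicing regulator NOVA1, DCTN6-DT (0.35), beside a dynactin subunit gene, and TBC1D22A-DT (0.30), beside a gene of the TBC domain family, were the other rises. Their edgeR adjusted p were 0.0253, 0.0286 and 0.0354. With library totals in place of TMM factors OSER1-DT and these 3 lost their calls (edgeR adjusted p = 0.0509 for OSER1-DT, 0.0645 for NOVA1-DT, 0.137 for DCTN6-DT and 0.0884 for TBC1D22A-DT). With no filter on low counts NOVA1-DT, DCTN6-DT and TBC1D22A-DT lost theirs as well (edgeR adjusted p = 0.0648, 0.0858 and 0.0818). NOVA1-DT lost its call with an offset for effective length (edgeR adjusted p = 0.261) and with the differentiation number as a block (0.0520). It also lost it without treated library 2 or 3 or vehicle library 3 or 4 (edgeR adjusted p = 0.0550 to 0.0749), and DCTN6-DT lost its call without treated library 2, 3 or 4 or vehicle library 4 (0.0584 to 0.0808). TBC1D22A-DT lost it without treated library 2, 3 or 4 or vehicle library 3, 4 or 5 (edgeR adjusted p = 0.0518 to 0.101).

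Of the 5 members with the highest mean level per length, PRDM16-DT comes first, with 15.7, 15.4, 13.7 and 12.7 TPM in treated libraries, against 69.6, 120, 133 and 122 TPM in vehicle libraries. GARS1-DT had 23.1 to 27.1 TPM in treated libraries and 23.2 to 27.2 TPM in vehicle libraries, and the groups overlapped. IRX2-DT, beside a homeobox gene of the Iroquois family, had 28.6, 25.7, 24.3 and 23.5 TPM in treated libraries, against 11.8, 21.6, 20.8 and 21.1 TPM in vehicle libraries. Its counts differed less (log2 fold change 0.21 ± 0.10, edgeR adjusted p = 0.0969), and IRX2 fell (-0.66), so that the ratio rose by 0.87, the largest rise of a ratio among the 180 pairs. With an offset for effective length IRX2-DT was called higher (log2 fold change 0.52, edgeR adjusted p = 0.00737), as it was without treated library 5 (0.27, edgeR adjusted p = 0.0375).

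NIPBL-DT, beside the gene of the cohesin loader, had 29.4, 32.9, 32.4 and 36.2 CPM in treated libraries, against 68.7, 62.4, 57.1 and 63.4 CPM in vehicle libraries (log2 fold change -0.94 ± 0.08, edgeR adjusted p = 6.81e-06). The groups were far apart, while NIPBL averaged 242 ± 32.8 CPM in treated cells and 198 ± 33.8 CPM in vehicle cells (log2 fold change 0.29, edgeR adjusted p = 0.0781). UBA6-DT, beside the gene of a ubiquitin-activating enzyme, had 18.1, 17.9, 17.9 and 19.1 CPM in treated libraries, against 26.3, 22.0, 22.3 and 22.2 CPM in vehicle libraries (log2 fold change -0.35 ± 0.08, edgeR adjusted p = 0.00293). The fall was small but the groups did not overlap, with or without vehicle library 2.

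Grouped by partner classes that were set from gene symbols or their first letters, the lncRNAs fell in nearly every class. A class can thus hold genes of another role. In the class named membrane transporters and channels, 8 of 9 were lower (median -0.92) and 7 of the 9 partners higher, against 38.3% of all partners. With an offset for effective length, 5 of the 9 lncRNAs were lower and 1 higher (median -0.73). Among these 9 are TMEM167B-DT (-0.96, partner 0.95), in the class by symbol and not by a shown transport activity, and SLC12A2-DT (-0.35, partner 0.22). The partner of SLC12A2-DT is a sodium, potassium and chloride cotransporter. Beside kinases, phosphatases and their regulators, 7 of 8 were lower, among them MAP3K9-DT, MAP3K2-DT (-0.66, partner 0.89) and GSK3B-DT (-0.81). Beside zinc finger genes 10 of 13 were lower, with a median log2 fold change of -0.77. Beside developmental transcription factors 5 of 6 were lower, and 3 of the 6 partners fell too: PRDM16, ISL1 and IRX2.

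Beside genes of RNA processing and translation, 5 of 9 were lower and none was higher, with TARS1-DT and RPL34-DT (-0.88, partner 0.41) among the falls and GARS1-DT and HNRNPD-DT (-0.04) among those with no call. Beside ubiquitin and proteasome genes 5 of 9 were lower. The class of mitochondrial proteins had a median of 0.06 over 5 members, which was -0.04 with library totals and -0.27 with an offset for effective length: COX10-DT (-0.90) and ACAD9-DT (-0.64) were lower, NDUFA6-DT was higher, and MRPL20-DT and MRPS30-DT had no call. COX10-DT, beside the gene of a haem synthesis enzyme needed for complex IV, had 10.1, 11.2, 11.0 and 11.9 CPM in treated libraries, against 21.0, 20.7, 20.4 and 20.5 CPM in vehicle libraries, while COX10 rose (0.54). The groups of COX10-DT were wide apart, on the side opposite to NDUFA6-DT. Of the 120 members beside other genes, 82 were lower and 5 higher. Members named in these classes and not above were chosen after their values were seen.

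Falls were called in members of every position and structure. Of the 125 with a gap between the starts, 90 were lower (median -0.78), and of the 44 with overlapping ends 25 were lower (median -0.44). Of the 132 that share no exon base with the partner, 95 were lower and 5 higher (median -0.78). Of the 47 that share exon bases, 28 were lower and 1 higher (median -0.59). Among single-exon members 27 of 38 were lower, and among those with at least 2 exons 96 of 141. By depth, 48 of 69 members with 50 to under 100 mean reads were lower, 29 of 40 with 100 to under 200, 24 of 38 with 200 to under 500 and 24 of 34 above that. Across members, Pearson's r of the log2 fold change was -0.25 with the log10 of effective length, 0.16 with the number of annotated exons, 0.06 with the log10 of mean reads and 0.01 with the gap, over 179 to 181 genes that share the same libraries. Where the partner was lower the lncRNA's median was -1.01, where it was not called -0.72 and where it was higher -0.67.

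The fall was not limited to genes with a -DT symbol. Of 209 other lncRNAs that lie head to head with a coding gene within 1000 bases, 59.3% were lower and 7.66% higher (median -0.71). Unlike the members, these lncRNAs had no limit of 50 reads, and all have a gap between the starts. Their coding partners were higher in 32.2% and lower in 24.8%, and in their 214 pairs the ratio was lower in 62.1% and higher in 8.41%. Among -DT genes under 50 reads 120 could be tested, of which 54.2% were lower and 4.17% higher. Antisense lncRNAs named -AS with at least 50 reads were lower in 57.1% and higher in 13.5%, and those named LINC in 47.7% and 22.7%. Over all 1301 lncRNAs with at least 50 reads and no -DT symbol, 44.4% were lower and 23.2% higher, with a median of -0.26. Pairs of 2 head-to-head coding genes changed their ratio about equally often each way (31.9% lower and 29.9% higher, first gene over second). These sets were described side by side, and differences between them were not tested.

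**Figure D5:**
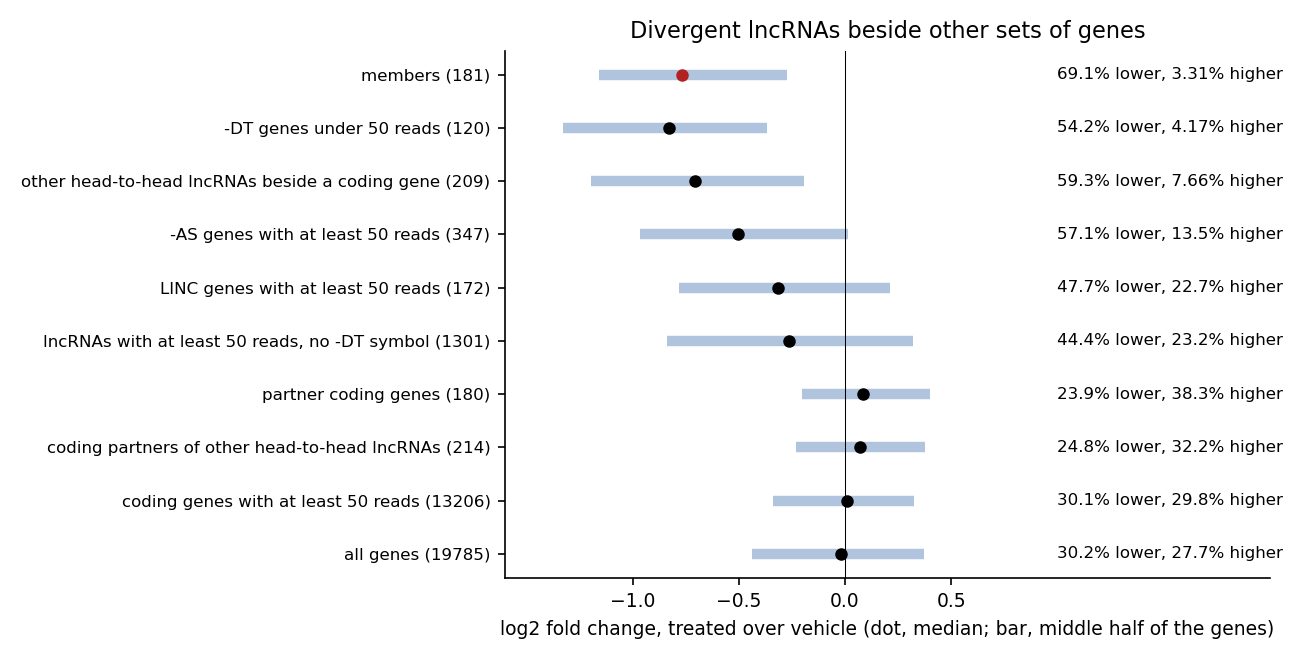
Median log2 fold change, treated over vehicle (dot), and the range of the middle 50% of genes (bar) for the members and other sets, with the number of genes in parentheses and the percentage called lower and higher by edgeR at the right. The members (red), the -DT genes under 50 reads and the other head-to-head lncRNAs lie lowest, and the coding sets centre near 0.

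The machinery that ends and removes upstream transcripts was also read. Of 14 genes of the nuclear RNA exosome, the nuclease complex that degrades them, 3 were higher and 4 lower (median 0.07, and -0.03 with library totals). EXOSC8 (1.19) and EXOSC6 (0.69) were higher and EXOSC9 (-0.48) and EXOSC3 (-0.39) lower, all core subunits. Of 8 exosome adaptors, which bring the complex to its targets, ZCCHC8 was higher, with 81.9 ± 2.14 CPM in treated cells and 28.9 ± 2.37 CPM in vehicle cells (log2 fold change 1.50 ± 0.07, edgeR adjusted p = 1.23e-07). ZCCHC8 is the scaffold of the nuclear exosome targeting complex. In the same list ZFC3H1 (-0.36) and PABPN1 (-0.19), which act on polyadenylated nuclear RNA, were lower (edgeR adjusted p = 0.0288 and 0.0435). With DESeq2's scaling in place of TMM factors 1 of the 8 adaptors was lower, and with library totals 3 were.

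Of the 4 nuclear cap-binding genes and the 3 U1 snRNP protein genes, 0 were called by edgeR, 0 had an unadjusted p under 0.05 and 0 were called by DESeq2. Among 17 genes of cleavage and polyadenylation, 5 were higher, PCF11 (0.82) and WDR33 (0.39) among them, and 6 lower, CPSF3 (-0.59) and CPSF6 (-0.59) among them. PCF11 couples cleavage to the release of RNA polymerase II. Of 15 Integrator genes, whose complex ends short transcripts near promoters, 3 were higher (INTS7, 0.35, and INTS10, 0.25, among them) and 4 lower (INTS6, -0.65, and INTS9, -0.52, among them). Of 16 genes of pausing and elongation, 4 were higher, such as NELFA (0.55) and CCNT1 (0.46), and 4 lower, such as RTF1 (-0.62) and CTR9 (-0.37). Over all 19785 genes the same shares are 27.7% and 30.2%, and the part of these genes in the members' fall was not tested.

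Transcript usage, the share of a gene's reads held by each of its transcripts, could be tested in 55 members and changed in 2, against 8.62% of 11746 genes (diffSpliceDGE of edgeR with Simes p-values). In UBA6-DT the main transcript held 93.1% to 97.0% of reads in treated libraries and 98.7% to 99.9% in vehicle libraries (edgeR adjusted p = 0.0062). In PRDM16-DT (edgeR adjusted p = 0.019) the second transcript held 45.6%, 36.2%, 42.2% and 33.5% of reads in treated libraries, against 2.62%, 32.0%, 30.8% and 31.2% in vehicle libraries, so that vehicle library 2 stood far from the other 3.

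The authors' deposited table of lncRNAs holds 15 members among its 1018 intact lines. Its value, read as a ratio of vehicle over treated cells, was above 1 in 12 of the 15. Among these, DNAJC3-DT (1.05) and OSER1-DT (1.00) lay near 1, and the mean FPKM of OSER1-DT was higher in treated cells (2.56 against 2.22). The authors' deposited table gives 6 a false discovery rate under 0.05: CAPN10-DT, CEP83-DT, EIF3J-DT, KDM7A-DT, MRPS30-DT and NCK1-DT. Of the 6 members, 5 were also called lower on the estimated counts. The same shares over all 1018 intact lines are not given here, so these counts are not set against that table as a whole. For CEP83-DT, the authors' deposited table gives 0.217, 0.268, 0.247 and 0.242 FPKM in treated libraries, against 0.866, 1.08, 0.861 and 0.983 FPKM in vehicle libraries, and a value of 1.56 in a column headed as a log2 fold change, which reads as a linear ratio of vehicle over treated cells. The quotient of the mean FPKM, vehicle over treated, is 3.89, and 1.57 after 1 FPKM is added to both means. MRPS30-DT differed between the sources: 0.389, 0.236, 0.135 and 0.212 FPKM in treated libraries, against 2.09, 1.10, 1.30 and 1.27 FPKM in vehicle libraries in the authors' deposited table, but 2.95, 3.04, 3.29 and 3.93 CPM against 3.70, 2.94, 2.72 and 2.76 CPM on the estimated counts. The first source has separate groups and the second overlapping ones (log2 fold change 0.12, edgeR adjusted p = 0.456). The gene model behind each value is not known from these files.

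At the limit of 50 reads, the members just inside were ITPR1-DT (50.75 mean reads, log2 fold change -1.51) and NUP107-DT (50.88 mean reads, -0.59), and the -DT genes just outside were AGA-DT (49.63 mean reads, -1.29) and EPB41L4A-DT (49 mean reads, -2.54). ITPR1-DT had 0.234, 0.233, 0.275 and 0.283 CPM in treated libraries, against 0.882, 0.660, 0.700 and 0.700 CPM in vehicle libraries. NUP107-DT averaged 0.397 ± 0.0744 CPM in treated cells and 0.599 ± 0.0896 CPM in vehicle cells, and it lost its call without treated library 3 (edgeR adjusted p = 0.0564) or without vehicle library 4 (edgeR adjusted p = 0.0598).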

How the data were processed

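RNA of 8 libraries was prepared with a poly(A) capture kit (KAPA mRNA HyperPrep), per the labels' protocols. Per the file headers, the authors deposited for each library gene and transcript tables of estimated counts, effective lengths and TPM, and 2 tables of their own comparisons, of which the lncRNA table holds FPKM values and ratios. HISAT2, SAMtools, StringTie and hg38 are named, without roles, per the submitters' processing notes, and the quantifier is not given in these sources. Of the lncRNA table's 1177 lines, 159 do not hold the values their headings name and were not used.

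Gene identifiers were matched to symbols (62637 of 62826) and to GENCODE release 29 (58262). Estimated counts were rounded, filtered with filterByExpr and scaled by TMM, and treated were compared with vehicle libraries in edgeR 4.0.16 (R 4.3.3; quasi-likelihood F-test), with Benjamini-Hochberg adjustment over 19785 genes and a threshold of 0.05. The SE of a fold change is its size over the root of the F statistic. CPM use TMM-scaled totals, with mean ± SD over n = 4. Pair ratios are log2 CPM (prior count 2) of the lncRNA minus the partner, tested with limma 3.58.1 over 1240 pairs with the lower mean level of the pair as trend. Transcript usage took in transcripts that reached 10 reads in 4 or more libraries. Alternatives included DESeq2 1.42.0. The tests were tried on simulated data first.

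The members, gene lists and partner classes were chosen with earlier results of these data known. Named are the up to 10 members with the largest rise and fall among those called with the same sign in all 4 numbers, the 5 highest in TPM, up to 6 pairs called in opposite directions, 6 pairs by the ratio test, members beside stress response genes, up to 2 genes each way from each list and 4 genes at the read limit. A member that this rule names is not reported here. No block was used in the main fit, because the series text gives independent batches and no pairing. Same-numbered libraries also did not deviate together (correlations -0.08, 0.03, 0.03 and -0.001). Within a group, every pair of libraries differed by more than sampling noise (chi-square over degrees of freedom, 14.0 to 435). With about 100 M reads, a member at the limit of 50 reads carries a large counting error.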

Additional observations from a re-analysis of the deposited data

Results flagged for a closer look

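In 58 groups of 4 libraries examined for a library far from the other 3, 5 stood apart, where chance gives about 1 in 20. Of these, 4 are in vehicle library 2: GARS1-DT at 39.3 CPM, UBA6-DT at 26.3 CPM and TARS1-DT at 7.59 CPM, each above the other vehicle libraries, and the members' summed level at 716 TPM, below them. The members' summed level in treated library 5, at 592 TPM, lay above the other treated libraries. Without vehicle library 2 the log2 fold change of TARS1-DT was -0.99, that of UBA6-DT -0.28 and that of GARS1-DT 0.09.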

How the results depend on the processing

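Of the 125 members lower in treated cells, 108 were lower under all 15 settings of the test, 113 with an offset for effective length and 121 with a replicate block by differentiation number. Library totals alone moved the median of all genes to -0.12 and that of the members to -0.87, and gave 134 lower and 2 higher members, 48 higher and 57 lower partners, and 47 pairs called the same way and 34 in opposite ways, so that the balance of partners and of pairs turned. The ratio test gave 128 lower and 10 higher pairs there. The count of higher members, 6, was 3 with no filter on low counts and 3 to 7 when single libraries were left out. The count of pairs with a higher ratio, 10, was 6 with the replicate block and 5 to 13 when single libraries were left out. With a limit of 100 mean reads, 112 members remained: 77 were lower, 40 partners were higher and 22 lower, 19 pairs moved the same way and 26 in opposite ways, and the ratio was lower in 85 and higher in 6, because fewer genes were counted. For the other moves the cause was not tested. Of 392 comparisons of a named member with an alternative, 357 kept direction and call, 25 lost the call, 4 gained it, and 6, all of GARS1-DT, which has no call, changed sign without a call. The correlation of same-numbered libraries gave no sign of pairing. Depth limits members near 50 reads, and the division of reads between overlapping exons is not part of any test.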

Other observations

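The pairs in the next sentences were chosen after their values were seen. INSIG1 encodes a sterol sensor partner of the endoplasmic reticulum, and it had 221, 227, 246 and 252 CPM in treated libraries, against 58.1, 70.9, 76.5 and 79.3 CPM in vehicle libraries (log2 fold change 1.73). INSIG1-DT had 2.95, 3.29, 3.28 and 3.25 CPM in treated libraries, against 2.51, 3.31, 3.37 and 3.68 CPM in vehicle libraries, with overlapping groups (log2 fold change -0.01 ± 0.12, edgeR adjusted p = 0.932). It thus stood, like GARS1-DT and DNAJC3-DT, at a level with no call beside a partner that rose by more than 1.5 log2 units.

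In 35 pairs the lncRNA and its partner were both called lower. The pairs of ISL1 and PCDH10 are described here as pairs in which both genes fell. ISL1, a LIM homeobox factor, was lower in all treated libraries (0.778 to 0.931 CPM, against 2.89 to 3.34 CPM in vehicle libraries), and ISL1-DT had 0.356 to 0.439 CPM in treated libraries, against 0.751 to 1.23 CPM in vehicle libraries. The ratio of this pair rose by 0.70 (limma adjusted p = 0.00333), since the coding gene fell more. PCDH10, a protocadherin gene, fell by 1.04 on the log2 scale and PCDH10-DT fell by 1.09, with a change of the ratio of -0.01 ± 0.17 (limma adjusted p = 0.956).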
